A study of Sus scrofa with 2 samples.

Results

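The lysosomal genes of porcine endometrium are described here as 42 genes for lysosomal enzymes, membrane proteins, proton pump subunits, a transcription factor and an inhibitor. They were chosen by gene symbol, and the deposited transcript rows of a gene were summed. Of the 42 genes, 33 had at least 1 row, among 11063 genes with a matched symbol in the whole table. The tissue came from 2 pregnant Yorkshire pigs slaughtered on day 18 (named YK18 replicate 1 and YK18 replicate 2), and total RNA of each pig gave its own RNA-seq library. The uterine horns were flushed with saline and opened before the endometrium was taken, so each library holds the epithelium, glands, stroma, vessels and leukocytes of the tissue together. The table held a single condition and no control group, so no test between conditions was possible, and each value below stands for a single pig. Values are RPKM as deposited, which scale the read number of each transcript to 1000 bases of length and to 1000000 reads in its library.

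The lysosome is the acidic compartment in which cells break down proteins, glycans and lipids. A proton pump in its membrane, the V-ATPase, keeps the lumen acid, and cathepsins, glycosidases, sulfatases and lipases work at that acid pH. Heavily glycosylated proteins such as LAMP1 and LAMP2 line the membrane, and TFEB is the transcription factor best known for switching on lysosomal genes. In the pregnant pig uterus, glands also secrete enzymes of lysosomal type into the lumen, of which uteroferrin is the best known.

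Of the 42 lysosomal genes, 26 were above 0 RPKM in both libraries and CTNS was above 0 in replicate 1 alone. A further 6, LGMN, MAN2B1, PPT1, PSAP, SCARB2 and CST3, were listed at 0 in both libraries, which is 18.2% of the genes with a row against 26.6% of all genes. The other 9, CTSS, GLB1, IDUA, GAA, FUCA1, ARSB, IDS, ATP6AP1 and TFEB, had no row under their symbol. Among the 33 genes with a row, 78.8% were above 0 in both libraries, where 63.1% of all genes with a matched symbol were. A mean of at least 100 RPKM was reached by 21 lysosomal genes, which is 63.6% of those with a row, and by 23.3% of all genes. These 21 genes stood at or above percentile 72.4 of the 8121 genes above 0. Only 2575 genes reached this mean, so a high percentile follows from the cut.

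The level was concentrated in few genes. The 5 highest, CD63, CTSC, HEXA, ATP6AP2 and ATP6V1A, held 63.0% of the summed lysosomal RPKM in replicate 1 and 65.5% in replicate 2. They belong to 4 classes, namely membrane proteins, proteases, glycosidases and the proton pump. The whole set summed to 19066 RPKM in replicate 1 and 19387 RPKM in replicate 2. That was 0.446% and 0.454% of the summed RPKM of the libraries.

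**Figure D1:**
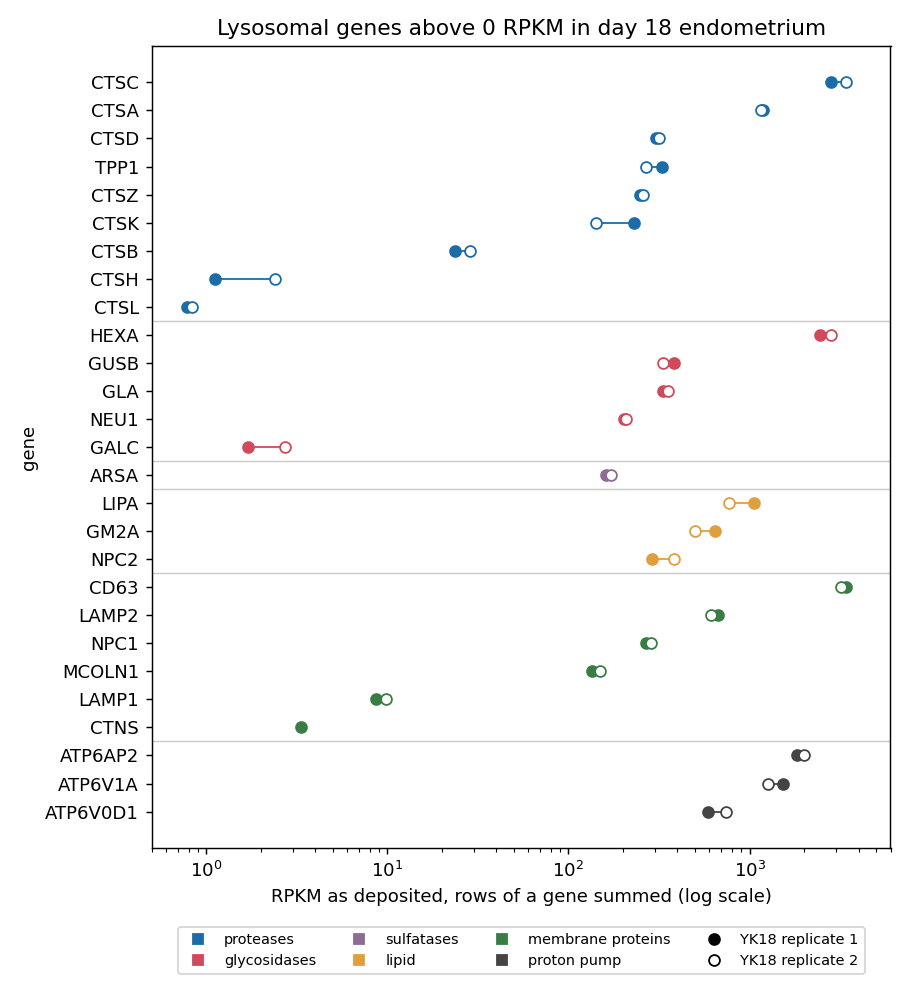
RPKM as deposited (log axis) of the 27 lysosomal genes above 0, grouped by class and ordered by mean. Filled points are YK18 replicate 1, open points replicate 2, and a line joins the 2 pigs. Most genes sit at 100 RPKM or more, and 6 genes, CTSB, LAMP1, GALC, CTSH, CTNS and CTSL, sit under 30 RPKM. CTNS has no open point because it is listed at 0 in replicate 2.

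Among the proteases, CTSC was the highest by far. CTSC encodes dipeptidyl peptidase I, which activates the serine proteases of immune cell granules. It reached 2799 RPKM in replicate 1 and 3388 in replicate 2, or 3094 ± 417 RPKM (SD, n = 2). It held 54.7% of the protease RPKM in replicate 1 and 60.9% in replicate 2. CTSA, a serine carboxypeptidase that also protects beta-galactosidase and neuraminidase from breakdown, followed at 1183 and 1158 RPKM. The RPKM of CTSC was 2.37 times that of CTSA in replicate 1 and 2.93 times in replicate 2.

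The next proteases lay close together. CTSD, the main aspartic protease of the lysosome, was at 304 and 315 RPKM. TPP1, a tripeptidyl peptidase, was at 328 and 269 RPKM, and CTSZ, a carboxypeptidase, at 249.7 and 258 RPKM. The ranges of CTSD and TPP1 over the pigs overlapped, and so their order was not settled. CTSK, a collagen-degrading cathepsin, had 231 RPKM in replicate 1 and 141 in replicate 2. No other of the 42 genes with a mean of at least 100 RPKM differed as much between the pigs.

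The other cathepsins were low in the table. CTSB, an abundant cathepsin of most tissues, was at 23.6 and 28.5 RPKM summed over 4 rows, from 36 and 41 reads. Read numbers here are the smallest that fit the deposited values, and the true numbers can be whole multiples of them. Its 3 rows above 0 were at 12.6 and 15.5 RPKM, 9.75 and 9.68 RPKM, and 1.25 and 3.33 RPKM, and its remaining row was listed at 0. The smallest read numbers that fit CTSH, an aminopeptidase, were 1 in replicate 1 and 2 in replicate 2, and those of CTSL, an endopeptidase, were 1 in each. At these numbers a difference between the pigs was not detectable, and the true depth of both genes is not known. LGMN, the asparaginyl endopeptidase that processes other cathepsins, was listed at 0 in both of its rows.

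Among the glycosidases, HEXA stood in the place that CTSC had among the proteases. HEXA is the alpha subunit of beta-hexosaminidase, which trims hexosamines from glycans and from GM2 ganglioside. It was at 2463 and 2834 RPKM, or 2649 ± 262 RPKM (SD, n = 2), and held 72.8% and 76.0% of the glycosidase RPKM. It came from 2097 and 2269 reads.

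GUSB, beta-glucuronidase, was at 380.4 and 331 RPKM, and GLA, alpha-galactosidase A, at 334 and 354 RPKM. GUSB and GLA changed places between the pigs. NEU1, the neuraminidase that works in a complex with CTSA, was steady at 202 and 207 RPKM, or 205 ± 3.43 RPKM (SD, n = 2). GALC, galactosylceramidase, was at 1.71 and 2.72 RPKM, from at least 2 and 3 reads. MAN2B1, the lysosomal alpha-mannosidase, was listed at 0. Of the sulfatases, ARSA alone had a row. It encodes arylsulfatase A, which removes sulfate from sulfatide, and was at 161 and 172 RPKM.

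Of the 5 genes for lipid enzymes and lipid-binding proteins, 3 were above 0. LIPA, the acid lipase that frees cholesterol and fatty acids from lipoprotein lipids, was at 1054 and 773 RPKM. GM2A, which lifts GM2 ganglioside out of the membrane for beta-hexosaminidase, was at 642 and 503 RPKM. NPC2, the soluble cholesterol carrier of the lysosome, was at 290.1 and 382 RPKM. LIPA and GM2A were thus higher in replicate 1 and NPC2 in replicate 2. The saposin precursor gene PSAP, with 4 rows, and the thioesterase gene PPT1, with 1 row, were listed at 0.

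The membrane proteins were led by CD63, a tetraspanin of late endosomes and lysosomes. It reached 3386 RPKM in replicate 1 and 3193 in replicate 2, or 3289.9 ± 136.6 RPKM (SD, n = 2), the highest mean of the 42 genes. In replicate 2 CTSC was above it. CD63 held 75.7% and 75.1% of the RPKM of its class.

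LAMP2, a structural protein of the lysosomal membrane that also serves chaperone-mediated autophagy, was listed in 2 rows. NM_001244255.1 was at 395 and 366 RPKM and NM_001244256.1 at 277 and 250.1 RPKM, which sum to 672 and 616 RPKM. The first row held 58.8% of the gene in replicate 1 and 59.4% in replicate 2, so the share of the 2 transcripts was close in the pigs. LAMP1, its close relative, was at 8.68 and 9.89 RPKM, from 14 and 15 reads. NPC1, the membrane partner of NPC2 in cholesterol export, was at 268 and 285 RPKM, and MCOLN1, the calcium channel of the lysosome, at 135 and 150.1 RPKM. CTNS, which exports cystine, had at least 3 reads in replicate 1 and was listed at 0 in replicate 2. SCARB2, an abundant protein of the lysosomal membrane, was listed at 0 in both of its rows.

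The 3 proton pump genes with a row were all at 590.4 RPKM or more in both libraries. ATP6AP2, an accessory subunit also known as the prorenin receptor, was at 1817 and 2011 RPKM. ATP6V1A, the subunit that binds and splits ATP, was at 1537 and 1264 RPKM, and ATP6V0D1, a subunit of the sector in the membrane, at 590.4 and 738 RPKM. The pump had the highest class median, at 1537 and 1264 RPKM. CST3, the gene of the secreted cathepsin inhibitor cystatin C, was listed at 0.

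Across the other classes, the medians lay close beside the range within each class. The median over the listed genes was 240.2 and 199.7 RPKM for 10 proteases, 268 and 269 RPKM for 6 glycosidases, 290.1 and 382 RPKM for 5 lipid genes and 135 and 150.1 RPKM for 7 membrane proteins. Each of these 4 classes held a gene listed at 0 and a gene at 773 RPKM or more in both libraries. On the log2 scale, the median of the proteases differed from that of the glycosidases by -0.16 in replicate 1 and -0.43 in replicate 2, and from that of the lipid genes by -0.27 and -0.94. The difference from the membrane proteins was 0.83 and 0.41. It was -0.12 in the mean of the libraries with only genes above 0 in both, so the order of proteases and membrane proteins was not stable. Genes of a class are not replicates, and no test was made between classes.

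In the order of mean RPKM over the 27 genes above 0, the ranges of the 2 pigs overlapped in 14 of 26 neighbouring pairs. CD63 overlapped CTSC and CTSC overlapped HEXA, while HEXA, ATP6AP2, ATP6V1A, CTSA and LIPA followed each other without overlap. From GUSB through GLA, NPC2, CTSD, TPP1 and NPC1, no neighbours were apart. The Spearman correlation of the 27 genes between the pigs was 0.981, which describes genes that share 2 libraries.

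The order also rests on the lengths that entered the RPKM. From the steps of the values, the libraries held 7466979 and 7023108 reads, and the smallest length at which both libraries gave whole reads was found for each row. For the 30 lysosomal rows above 0 it had a median of 178.5 nt and reached at most 323 nt, which is short for these mRNAs. The true length can be a whole multiple of it, and so the reads can be as well. For NPC1 the smallest length was 1 nt, which cannot be that of a transcript, and NPC1 is therefore given no read number here. By reads, CD63 was first with 4324 and 3835 and ATP6AP2 was second with 3161 and 3290, before CTSC with 2780 and 3165. With NPC1 left out, GUSB moved the most, from rank 11 by RPKM to rank 16 by reads. CTSZ moved from 16 to 20, NEU1 from 17 to 13, CTSA from 6 to 9, GM2A from 10 to 7 and TPP1 from 15 to 12, and the others by at most 2 ranks. CTSB, LAMP1, GALC, CTSH, CTNS and CTSL stayed below the rest on both scales.

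**Figure D2:**
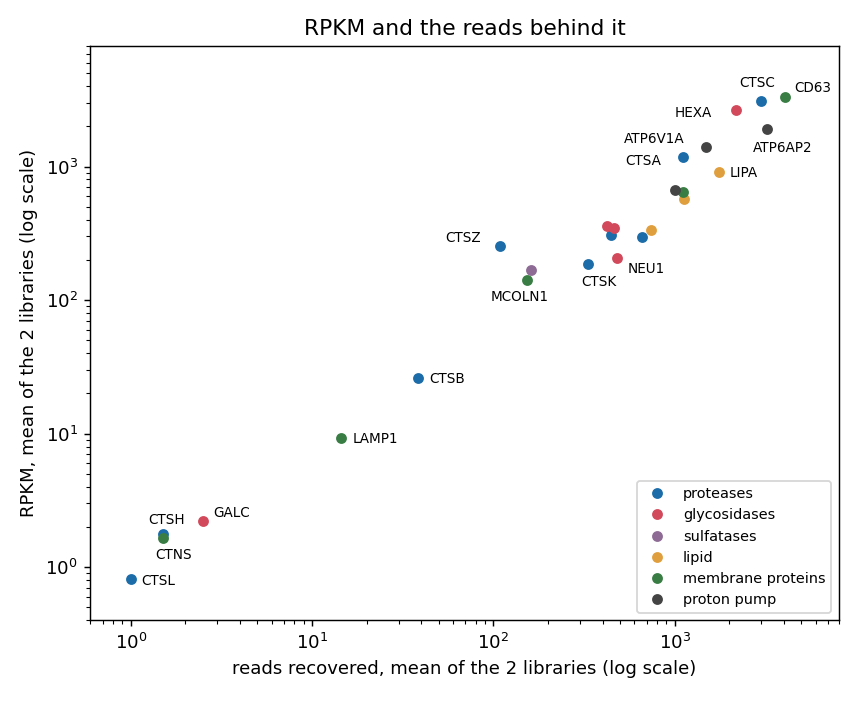
Mean RPKM (log axis) against the mean number of recovered reads (log axis) of 26 lysosomal genes, as the mean of the 2 libraries and colored by class. Reads are the smallest numbers that fit, and NPC1 is left out because its smallest length was 1 nt. CD63, CTSC, HEXA and ATP6AP2 lie at the top on both axes, and CTSZ lies to the left of genes with a like RPKM.

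The pigs differed little in most lysosomal genes. A gene was counted as at least 2-fold apart on the scale log2(RPKM + 1) where its mean was at least 1 RPKM. Of 26 such lysosomal genes, CTNS alone met this, against 10.6% of the 6474 genes of the table. CTNS was higher in replicate 1, as 3.17% of those genes were, and it rested on at least 3 reads. The median log2 ratio of replicate 2 to replicate 1 was 0.07 over the lysosomal genes and 0.07 over all genes. Among the 21 genes with a mean of at least 100 RPKM, the fold between the pigs ran from 1.02 for CTSA to 1.63 for CTSK. Their median was 1.11-fold, where that of all genes at this level was 1.13-fold. CTSK was the single gene of these 21 at 1.5-fold or more, against 7.69% of all genes at this level. Of the 21 genes 12 were higher in replicate 2, against 53.4% of all genes at this level. The steadiness of the lysosomal genes was thus close to that of other genes of their level.

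**Figure D3:**
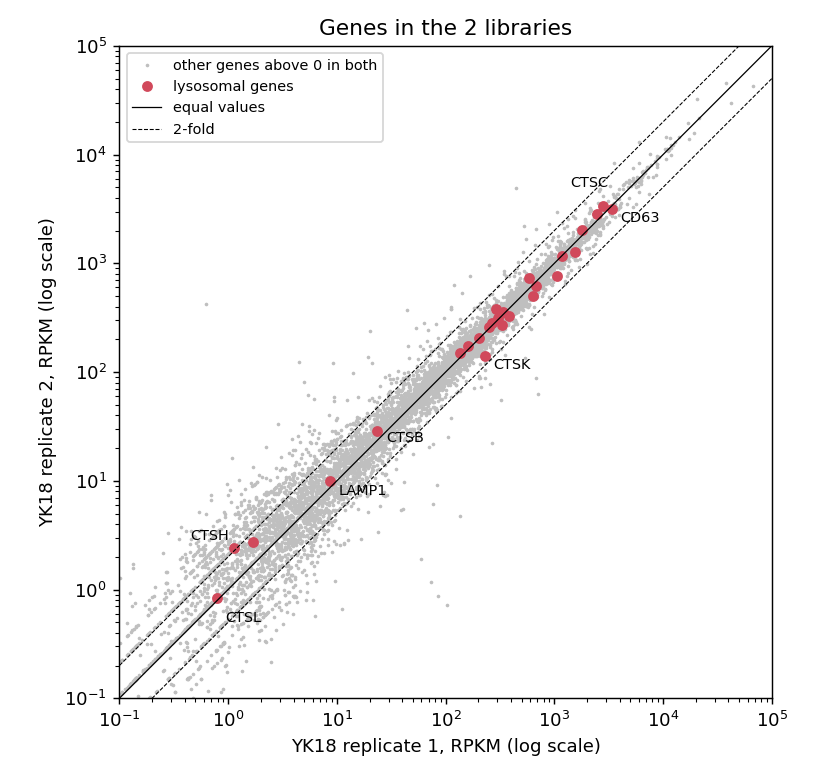
RPKM in YK18 replicate 1 (log axis) against replicate 2 (log axis) for genes above 0 in both libraries, in grey, with the 26 lysosomal genes in red. The solid line marks equal values and the dashed lines a 2-fold difference. The lysosomal genes lie along the solid line, with CTSK below it and CTSH, from at least 1 and 2 reads, just above the upper dashed line.

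Small differences were larger than counting error for some genes. For 12 of the 21 genes with a mean of at least 100 RPKM the 95% exact binomial interval of the ratio left out 1, as it did for 48.8% of all genes at this level. Such intervals hold counting error alone. PCR copies of a molecule are counted in them as separate reads, which makes them narrower. They are drawn from the smallest read numbers that fit, and whole multiples of these would narrow them further. They compare 2 libraries and not conditions. Higher in replicate 2 were NPC2, ATP6V0D1, CTSC, HEXA and ATP6AP2, 5 of 21 against 26.3% of all genes. NPC2 had the largest ratio of replicate 2 to replicate 1, 1.32 (interval 1.19 to 1.46). The ratio of CTSC was 1.21 (1.15 to 1.27) and that of HEXA 1.15 (1.08 to 1.22).

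Higher in replicate 1 were CTSK, LIPA, GM2A, TPP1, ATP6V1A, GUSB and CD63, 7 of 21 against 22.5% of all genes. The ratio of CTSK was 0.612 (0.521 to 0.719), that of LIPA 0.733 (0.685 to 0.784) and that of GM2A 0.783 (0.719 to 0.852). LIPA and GM2A both act on lipids, but NPC2, of the same class, went the other way. The pump genes were split as well, with ATP6V1A at 0.822 (0.765 to 0.885) and ATP6V0D1 at 1.25 (1.14 to 1.37). CTSA, CTSD, GLA, NEU1, ARSA, CTSZ, MCOLN1 and LAMP2 had intervals that held 1.

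**Figure D4:**
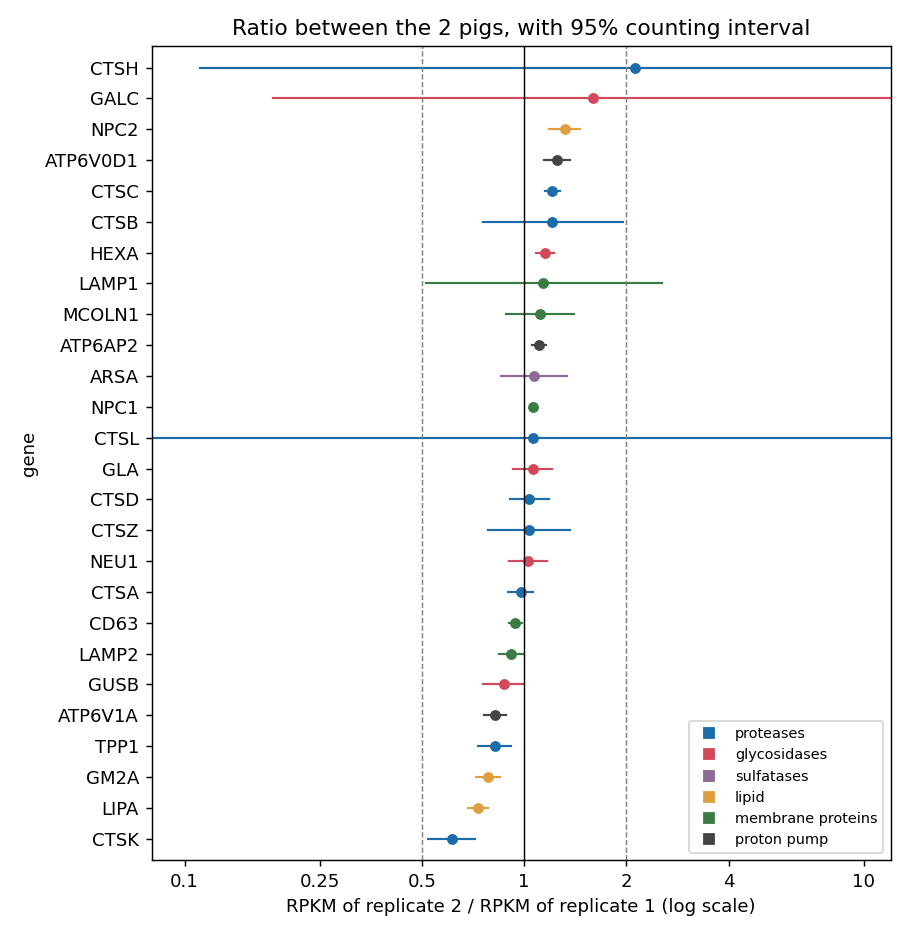
Ratio of the RPKM of YK18 replicate 2 to replicate 1 (log axis) for the 26 lysosomal genes above 0 in both libraries, with the 95% exact binomial interval from recovered reads as a line. The solid line marks equality and the dashed lines 2-fold. CTSK, LIPA and GM2A lie lowest, NPC2 and ATP6V0D1 are the highest of the genes with narrow intervals, and CTSL, CTSH and GALC have intervals that reach past the axis at the smallest read numbers that fit. NPC1 is drawn without an interval.

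Further genes of the pathway, on 6 lists outside the 42, were looked at in the same way. Of 89 such genes, 58 had a row and the mean of 41 was 1 RPKM or more. Among these 41, 5 were at least 2-fold apart, all of them higher in replicate 2, against 7.48% of all genes in that direction. They were 2 of 10 pump subunits, 2 of 7 membrane proteins and 1 of 4 genes of delivery to the lysosome. There were 0 of 11 hydrolases, 0 of 2 cystatins and 0 of 7 genes of the TFEB relatives and their control. Below 2-fold, 9 of the 11 hydrolases were still higher in replicate 2 and 2 in replicate 1. Their median log2 ratio of replicate 2 to replicate 1 was 0.47, where that of all genes with a mean of at least 1 RPKM was 0.07. Among the 5 genes at least 2-fold apart, the counting interval left out 1 for LAPTM5 alone. ATP6V1H and NAGPA were listed at 0 in replicate 1 and had at least 5 and 4 reads in replicate 2. The 10 highest were LAPTM4A, MTOR, IGF2R, GGH, LAPTM5, ATP6V1D, LAPTM4B, RNASET2, ATP6V1G1 and ATP6V1C1. LAPTM4A, a small membrane protein of late endosomes, was at 2459 and 2002 RPKM, in the range of HEXA and ATP6AP2. MTOR, the kinase that holds TFEB in the cytoplasm when nutrients are ample, was at 1623 and 1387 RPKM. It came from at least 606 and 487 reads. IGF2R, the receptor that sorts newly made hydrolases to the lysosome, was at 1255 and 1274 RPKM. The other 7 had means from 408 to 902 RPKM. Of these, ATP6V1D had at least 43 and 42 reads and ATP6V1C1 at least 33 and 32. ATP6V1G1, at 420 and 506 RPKM, had at least 1418 and 1605. These are the smallest read numbers that fit, and the true numbers can be whole multiples of them. How many reads the RPKM of ATP6V1D and ATP6V1C1 rests on is therefore not known.

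The genes at least 2-fold apart with a mean of at least 5 RPKM were LAPTM5, SLC11A1 and ATP6V1B2. LAPTM5, a lysosomal protein of leukocytes, had 468 RPKM in replicate 1 and 1034 in replicate 2, a ratio of 2.21 (2.05 to 2.39). SLC11A1, a metal transporter of macrophage phagosomes, had at least 4 and 9 reads, and ATP6V1B2, a pump subunit, at least 6 and 13, and both intervals held 1 at these numbers. In the same direction, CTSW, a cathepsin of cytotoxic lymphocytes, was at 174 and 315 RPKM, and ACP5, the gene of uteroferrin, at 233 and 356 RPKM. CTSW and ACP5 were chosen after their values had been seen.

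Marker genes of cell types moved between the pigs as well. Of 6 macrophage markers with a mean of at least 1 RPKM, 5 were higher in replicate 2. Of all genes with a mean of at least 100 RPKM, 53.4% were, a cut that CD14, CD163 and C1QB do not reach. At a mean of at least 1 RPKM, the median log2 ratio of replicate 2 to replicate 1 was 0.35 over the 6 markers. Over all genes at that cut it was 0.07. The counting intervals of C1QA, C1QB and C1QC left out 1, and those of CSF1R and CD14 held it. The list of 10 summed to 1079.8 and 1485 RPKM. C1QC was at 478 and 702 RPKM, C1QA at 384 and 529 RPKM and CSF1R at 104 and 111 RPKM, while AIF1, MSR1 and TYROBP were listed at 0. CD163, a scavenger receptor of macrophages, went the other way, at 34.7 and 20.8 RPKM, a ratio of 0.598 (0.359 to 0.978), and was named after its value had been seen. The stroma list summed to 2353 and 1521 RPKM. LUM, an abundant proteoglycan of stroma, was at 2122 and 1224 RPKM, in the direction of CTSK, but DCN at 211 and 273 RPKM and VIM at 19.5 and 24.9 RPKM went the other way. The part of these cell types in the values of LAPTM5, CTSW and CTSK was not tested. In bulk tissue, fewer cells of a type and less RNA per cell cannot be told apart.

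The labelled tissue had its epithelial markers, with EPCAM at 5106 and 5128 RPKM, CDH1 at 4834 and 3961 RPKM and KRT18 at 1626 and 1064 RPKM, and KRT8 was listed at 0. The epithelial list summed to 11970.1 and 10845 RPKM, with 3 of 5 genes higher in replicate 2. Replicate 1 held more transcripts of most skeletal muscle markers, with CKM at 103 against 0.723 RPKM, TNNC1 at 96.8 RPKM against 0 and MYH1 at 85.7 against 0.868 RPKM. The list summed to 461 and 14.9 RPKM, and all 6 genes of a mean of at least 1 RPKM were higher in replicate 1. ACTA1 was at 0.536 and 0 RPKM, from at least 1 read in replicate 1, and TNNT3 was listed at 0. The trophectoderm list summed to 823 and 228 RPKM. Its highest gene, IFNG, an interferon that the pig conceptus secretes, was at 682 and 89.1 RPKM. GATA2 was at 122 and 125 RPKM and TFAP2C at 17.5 and 14.1 RPKM. CDX2 was at 1.46 and 0.222 RPKM, from at least 7 and 1 reads, and GATA3 and ELF5 were listed at 0. The part of these transcripts in the values of the lysosomal genes was not tested.

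Genes with several rows were low in the whole table. Of genes with 1 matched row, 30.1% had a mean of at least 100 RPKM and 21.1% were listed at 0. Of genes with 2 rows 4.38% and 40.3% did so, and of genes with 4 rows or more 1.78% and 49.1%. Among the lysosomal genes, 18 of 26 with a single row reached 100 RPKM, and 3 of 7 with several rows did, namely LAMP2, LIPA and CTSK. In LIPA and CTSK a single row held all the reads and the other was listed at 0. PSAP, LGMN and SCARB2, all at 0, and CTSB have several rows. MAN2B1, PPT1 and CST3, also at 0, have 1 row each, as have the low genes LAMP1, GALC, CTSH, CTNS and CTSL. A value of 0 is given only as listed at 0, and the part of the number of rows in these values was not tested.

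**Figure D5:**
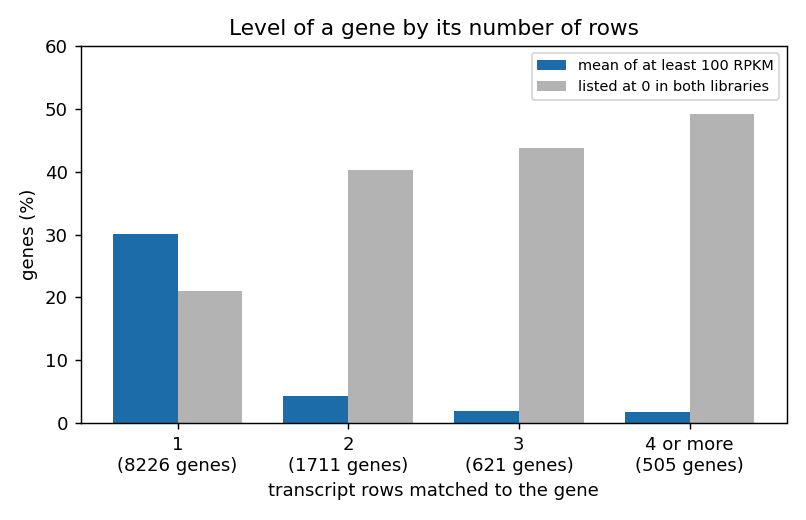
Share of genes (percent, axis from 0) with a mean of at least 100 RPKM, in blue, and listed at 0 in both libraries, in grey, by the number of transcript rows matched to the gene. The blue bars fall from 30.1% for genes with 1 row to 1.78% for genes with 4 rows or more, while the grey bars rise from 21.1% to 49.1%.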

How the data were processed

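RNA-seq libraries were made from the endometrium of 2 pregnant Yorkshire pigs (day 18), 1 for each pig. Transcript reads were counted by the authors in HTSeq (0.6.1), and the deposited values are RPKM in a column for each library. The aligner, genome build and filters are not given in the sources used here. RPKM values are not counts, so no count model was fitted. Gene symbols were taken from RefSeq (assembly Sscrofa11.1). With version numbers ignored, 16072 of 38222 mRNA rows (42.0%) had a symbol, and no coordinates were used. Rows of a gene were summed.

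Library totals and reads were recovered from the steps of low values. Lengths up to 20000 nt were tried for each row, and the smallest that made the reads of both libraries whole was kept, within 1e-05 reads or 3e-09 of their number. Such a length was found for 100% of 25584 rows above 0. On 24199 simulated transcripts the method returned the true totals, the true length for 84.1% and the true length or a divisor of it for 99.9%. Of 200 transcripts raised 4-fold there, all with a mean of at least 20 reads, 200 were called 2-fold apart. The simulation held counting error alone, and it does not cover genes with fewer reads. Ratios used a pseudocount of 1 RPKM, and counting intervals are 95% exact binomial intervals (Clopper-Pearson).

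The 42 genes and the lists were chosen with earlier results of these data known. Every gene of the 42 is accounted for, and in each class the 3 highest and any gene at least 2-fold apart were described in more depth. Of further lysosomal genes the 10 highest and those at least 2-fold apart with a mean of at least 5 RPKM were named, and of each marker list the 3 highest. CTSW, ACP5, ATP6V1H, NAGPA, C1QB, CD14, CD163, ACTA1, CDX2 and the markers listed at 0 were named outside this rule, after their values had been seen. Some further genes are not reported here. Alternatives were other pseudocounts, filters, scalings and thresholds, the highest row of a gene, matched versions, recovered reads and each replicate left out. Sequences and promoter motifs were not analysed here. Python 3.11.15, pandas 2.3.3, numpy 2.4.6, scipy 1.17.1 and matplotlib 3.10.9 were used.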

Additional observations from a re-analysis of the deposited data

How the results depend on the processing

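No paired analysis was possible because both pigs belong to a single condition. Ratios between the pigs could not be formed without either replicate, and reads per coding length were not run, because no coding lengths were used here. The summary results other than the median log2 ratio had 38 values under alternatives. Of these, 21 kept their direction and moved by less than the spread of the pigs or, for counts, by at most 1.5 times. A further 15 moved by more and 2 reversed. For class differences and the share of the 5 highest, leaving out 1 of 2 pigs cannot move a mean beyond their spread. Those values fall among the 21 by construction and show no stability. The median log2 ratio, 0.07, was 0.0037 with the median ratio of all genes set to 0, 0.034 over all listed genes and from 0.049 to 0.07 under the other 6 alternatives. A median has no spread between pigs here, so its stability was not tested. The number of genes at least 2-fold apart, 1, was 2 with a pseudocount of 0.1 or 0.01 (CTNS and CTSH), 3 at 1.5-fold (with CTSK), and 0 with a minimum mean of 5 RPKM, after scaling both libraries to a sum of 1000000, or in recovered reads per 1000000 reads. With accession versions matched, 15 in place of 26 genes were above 0 in both libraries, since fewer rows had a symbol, and the 5 highest held 76.6% in place of 64.2% of the summed RPKM. In recovered reads they held 59.0%.

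The log2 difference of proteases from glycosidases, -0.29, was -1.38 with versions matched and -1.03 in recovered reads. That from lipid genes, -0.60, was -1.16 with genes above 0 in both libraries and -1.78 in recovered reads, and gave no value with versions matched. That from membrane proteins, 0.62, turned to -0.12 with genes above 0 in both libraries and to -0.16 with versions matched. It was 3.90 in recovered reads and 1.37 in recovered reads without NPC1, an alternative chosen after seeing the data. The cause of these moves was not tested. Without each replicate in turn, the differences ran from -0.43 to -0.16, from -0.94 to -0.27 and from 0.41 to 0.83. The share of the 5 highest ran from 63.0% to 65.5% and the genes above 0 from 26 to 27.

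A spread from 2 pigs is imprecise, and at the smallest read numbers that fit, the counting intervals of CTSL, CTSH and GALC are wide.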
